A study of Megalobrama amblycephala with 2 samples.

Results

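In 1 liver library from blunt snout bream held at 35 °C, 74 transcript components stood at least 4-fold higher than in 1 library from 25 °C. The fold was taken on a log scale with a pseudocount of 1 RPKM. These 74 components form a group chosen by their measured values in the deposited table of 35281 assembled components. A component entered when the mean of its 2 values was at least 10 RPKM and below 1000 RPKM, and when its log2 fold, log2((heat + 1)/(control + 1)), was at least 2. RPKM is the number of reads scaled to transcript length and library depth, so levels can be compared between components. The group was split at 1 RPKM in control, which left 17 components near silent in control and 57 that were already expressed there and stood higher still in heat.

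The fish were juvenile Megalobrama amblycephala, a freshwater cyprinid, and the tissue was liver. One library came from the group labelled heat-treatment, kept in water of 35 °C for 72 h, and 1 library from the group labelled control, kept at 25 °C for the same 72 h. Both groups were fasted for a day before transfer to the test tanks, and livers of several fish per group were sampled. The labels do not say how many fish a library holds, and they give no strain, sex or age beyond the juvenile stage. The design text once speaks of nitrite exposure, whereas the labels give temperature as the treatment of both samples.

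The body of a cyprinid takes on the temperature of its water, so a warmer tank warms the liver directly. In vertebrate cells, proteins that unfold on warming release heat shock factor, which switches on chaperone genes, and the liver also makes most plasma proteins and handles lipids, bile acids and the breakdown of foreign compounds. None of these roles can be read from the table, because its identifiers come from the assembly and are paired with no gene. Identifiers were compared, as text only, with the names and identifiers of 38087 RefSeq genes of the species. This gave 0 matches for the 74 components and 0 for the whole table. Identifiers made by an assembly could not match such names, and no search by sequence was made. No component is therefore given a gene name or role here, the liver label could not be checked against hepatocyte markers, and no sequence is shown.

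With 1 library per temperature, no value below has an error across fish, no difference was tested, and every fold compares these libraries rather than the conditions. Temperature, fish, tank and library preparation cannot be told apart. In liver RNA as a whole, more cells of a type and more RNA per cell cannot be told apart either. Summed RPKM was 767855 in heat and 750651 in control. Relative depth was estimated from the most frequent ratio among low components, which was assumed to mark equal read numbers. On that assumption, the heat library was about 1.04 times as deep as the control library. The table does not hold read numbers, and values therefore carry no counting interval.

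The values that chose the group are given as a description. Of 3486 components with a mean of 10 to under 1000 RPKM, 74 met the fold limit, or 2.12%, and 98 met the same limit in the other direction, or 2.81%. The median log2 fold was 2.74 in the group and 0.01 over all 3486 components. It includes 5 members listed at 0 in control, whose log2 folds rest on the pseudocount. Heat values ran from 17.62 to 1326.66 RPKM with a median of 54.98 RPKM, and control values from 0 to 253.97 RPKM with a median of 6.08 RPKM. Summed over the group, heat held 12859 RPKM and control 1556 RPKM. This is 1.67% of the summed RPKM of all components in heat and 0.207% in control.

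**Figure D1:**
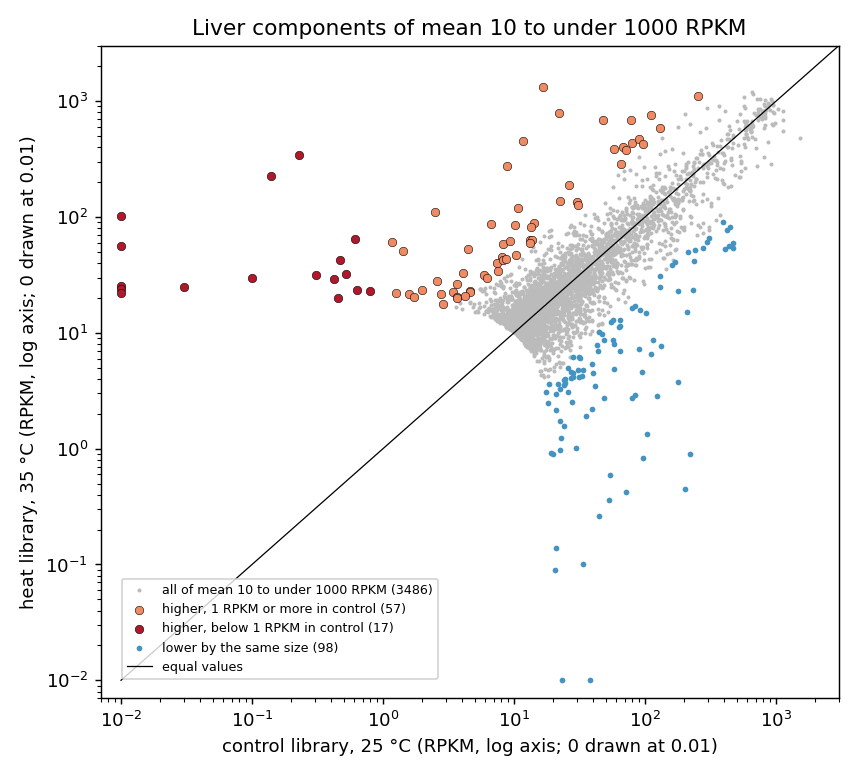
Heat value against control value (RPKM, both axes log, 0 drawn at 0.01) for the 3486 components with a mean of 10 to under 1000 RPKM. The 57 expressed and 17 near-silent components of the group lie above the line of equal values, and the 98 components lower by the same size lie below it.

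In the order of abundance over all 35281 components, the group stood nearer the top in heat than in control. This follows from choosing components by a higher heat value, and the ranks are given as a description. Its median rank was 5422 in control and 886 in heat. The member ranked highest in heat was 94th, and the lowest was 2200th. In control, ranks ran from 315th to 34889th, the place shared by all components listed at 0.

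The group's signal was spread unevenly over its members. The 25 members with at least 100 RPKM in heat held 85.1% of its summed heat value, and the 10 highest held 56.8%. Another 29 members stood under 40 RPKM in heat and together held 5.63%. Without the member highest in heat, the group summed to 11533 RPKM in heat against 1539 RPKM in control. The whole table was uneven as well, although it includes levels that the choice left out. No such share was computed for the 3486 components of the same mean range. Of all 35281 components, the 127 with a mean of 1000 RPKM or more held 61.6% of the summed heat value.

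The 17 near-silent components lay between 0 and 0.79 RPKM in control and between 19.95 and 341.15 RPKM in heat. Their medians were 0.23 RPKM in control against 29.58 RPKM in heat. The limits on the mean and on the control value force these heat and control ranges apart. They held 8.72% of the group's summed heat value and 0.302% of its control value.

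Among them, comp19242_c0 had the largest log2 fold and the highest heat value. It stood at 341.15 RPKM in heat against 0.23 RPKM in control, and its log2 fold was 8.12. It held rank 268 in heat and rank 34371 in control. Its control value lies far below the pseudocount, and its log2 fold was 10.01 with a pseudocount of 0.1 RPKM and 6.05 with 5 RPKM. The next in heat level stood at 227.82 RPKM against 0.14 RPKM in control, at ranks 339 and 34600. These were the only near-silent components above 200 RPKM in heat. Without a pseudocount, the second of them had the larger ratio, 1627 against 1483 for comp19242_c0. Both ratios rest on control values near 0.

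Of the 17 near-silent components, 5 were listed at 0 in control. Their heat values were 102.88, 56.59, 25.57, 23.75 and 22.18 RPKM. The first of these had the next heat value after the 2 components above, and the other 4 were spread through the rest. Folds are not given for them, since a 0 in such a table may stand for an estimate that failed.

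The remaining 10 near-silent components had control values above 0 and heat values under 100 RPKM. The highest of them stood at 64.85 RPKM in heat against 0.61 RPKM in control, 106 times as high in heat. It was followed by a component at 42.68 RPKM in heat against 0.47 RPKM in control, 90.8 times as high. The other 8, all under 40 RPKM in heat, had a median ratio of 65.6. The largest ratios of the 10 were also found among these 8, where the control value was nearest 0. A component at 24.89 RPKM in heat against 0.03 RPKM in control was 830 times as high. One at 29.58 RPKM in heat against 0.1 RPKM in control was 296 times as high. The smallest ratio of the class was 29.2, for a component at 23.04 RPKM in heat against 0.79 RPKM in control.

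Most near-silent components lay close to the lower limit of the group. In heat, 11 of 17 stood under 40 RPKM, 3 between 40 and 100 RPKM and 3 at 100 RPKM or more. A component at 0 in control enters only at 20 RPKM in heat, so the lower end of this range is set by the choice. Just outside that limit lay a component at 19.88 RPKM in heat listed at 0 in control, and one at 19.66 RPKM in heat against 0.14 RPKM in control. Just inside lay one at 19.95 RPKM in heat against 0.45 RPKM in control. At a mean of 5 to under 10 RPKM, 60 further components met the fold limit, and 33 of these were below 1 RPKM in control.

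**Figure D2:**
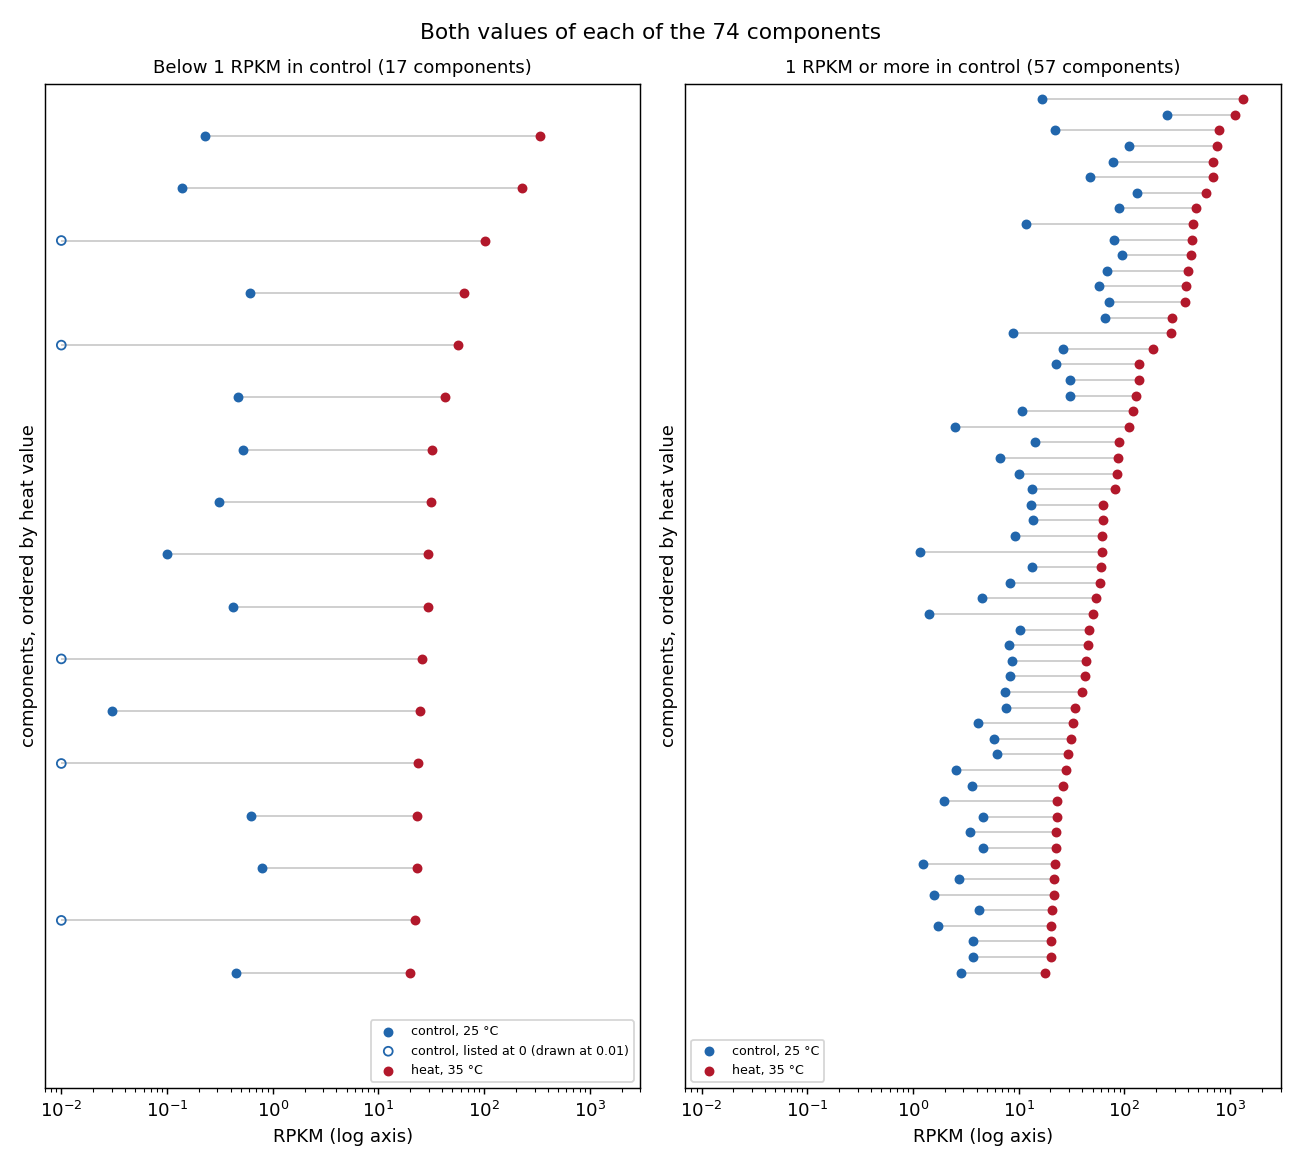
Control (blue) and heat (red) values in RPKM on a log axis for each of the 74 components, ordered by heat value, with open circles for components listed at 0 in control. In the 17 near-silent components all heat values are at 19.95 RPKM or above, and in the 57 expressed ones the control values reach 253.97 RPKM.

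The 57 expressed components ranged from 1.17 to 253.97 RPKM in control and from 17.62 to 1326.66 RPKM in heat. Their medians were 8.90 RPKM in control against 61.51 RPKM in heat. Without a pseudocount they were 4.18 to 79.3 times as high in heat, with a median of 6.14. The 2 ranges of levels overlap across components, although every single component was higher in heat, as the choice requires.

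Of the 57 expressed components, 7 stood apart in their ratio, at 30.9 to 79.3 times as high in heat, a boundary seen in the values. The next ratio down was 17.7. The leading one, comp17633_c0, had the highest heat value of the whole group. It stood at 1326.66 RPKM in heat against 16.74 RPKM in control, and its log2 fold was 6.23. It held rank 94 in heat and rank 2300 in control. This component groups 6 assembled transcripts and was 0.173% of the summed RPKM in heat.

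The other 6 of these steep components spanned a wide range of levels. The most abundant stood at 792.28 RPKM in heat against 22.24 RPKM in control, at ranks 159 and 1827. Below it, one stood at 449.53 RPKM in heat against 11.73 RPKM in control, and one at 274.84 RPKM against 8.90 RPKM. All of these were at 8.90 RPKM or above in control and at rank 305 or better in heat. The last 3 had low control values, at 2.49 RPKM with 111.13 RPKM in heat, at 1.17 RPKM with 61.26 RPKM in heat, and at 1.42 RPKM with 50.79 RPKM in heat.

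At the other end, 3 components were already above 100 RPKM in control. One stood at 253.97 RPKM in control against 1108.20 RPKM in heat, 4.36 times as high, and groups 25 assembled transcripts. Another stood at 131.09 RPKM in control against 589.93 RPKM in heat, 4.50 times as high. The last stood at 111.65 RPKM in control against 755.18 RPKM in heat, 6.76 times as high. These 3 were among the 541 most abundant components in control and among the 204 most abundant in heat.

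Their ratios ran from 4.36 to 6.76, on both sides of the median of 6.14 over the expressed components, and the amounts were large. The 3 components held 19.1% of the group's summed heat value and 31.9% of its control value. The 24 components of 10 to under 100 RPKM in control held 61.6% and 58.7%, with a median ratio of 5.99. The 30 components of 1 to under 10 RPKM in control held 10.6% and 9.09%, with a median ratio of 6.87.

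In the 24 components of 10 to under 100 RPKM in control, heat values ran from 46.58 to 1326.66 RPKM with a median of 235.75 RPKM. Beside the steep ones named above, 2 of the most abundant stood at 689.91 RPKM in heat against 78.02 RPKM in control, and at 682.24 RPKM in heat against 47.62 RPKM in control. The first was 8.84 times as high in heat and the second 14.3 times. In the 30 components of 1 to under 10 RPKM in control, heat values ran from 17.62 to 274.84 RPKM with a median of 30.52 RPKM. Only 2 of these 30 reached 100 RPKM in heat.

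Over all 57 expressed components, 16 were at least 10 times as high in heat, 26 were 5 to under 10 times as high and 15 were under 5 times as high. The components nearest the fold limit were not separated from those left out. The last inside stood at 128.19 RPKM in heat against 30.67 RPKM in control, with a log2 fold of 2.03. The first outside stood at 76.45 RPKM in heat against 18.52 RPKM in control, with a log2 fold of 1.99. A further 5 components met the fold limit but had means of 1000 RPKM or more and were left out, the lowest at 1856.44 RPKM in heat against 367.31 RPKM in control.

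The group's share of its level class was largest in the top class of the chosen range. At a mean of 200 to under 1000 RPKM, 14 of 237 components (5.91%) met the limit, and all 14 were expressed in control. In the 4 lower classes the share was 1.73% to 2.16%. The opposite change was met by 7 of the 237 components (2.95%), so that higher components outnumbered lower ones there, while lower ones outnumbered higher ones in each class below. That order of higher and lower counts was the same in all 5 classes under each of 3 rescalings of the heat library. The share in the top class was then 5.98% to 6.01% and the share in the lower classes 1.08% to 2.24%. The rescalings multiplied heat values by 0.956 to 0.980, which is small beside a 4-fold limit, so they are a weak check. The pseudocount asks for a larger ratio at low means than at high ones, so the classes were not held to the same ratio. Shares by class were not computed with other pseudocounts. Above the chosen range, 5 of the 127 components with a mean of 1000 RPKM or more met the limit. Classes and counts also use the values that chose the group. The difference between classes was not tested, and the classes rest on few components.

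**Figure D3:**
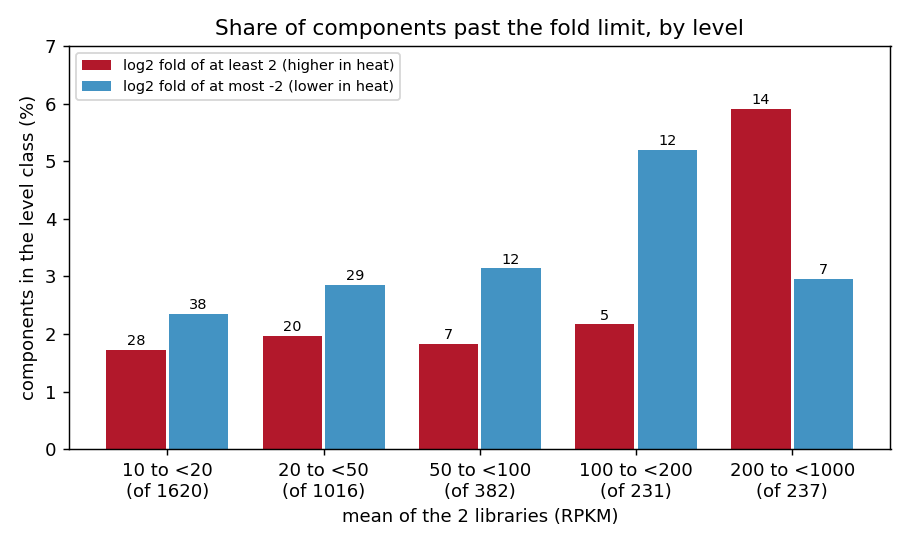
Percent of the components in each class of mean level (RPKM) that met the fold limit upwards (red) or downwards (blue), with the number of components above each bar. The red bar reaches 5.91% at 200 to under 1000 RPKM and lies between 1.73% and 2.16% in the classes below.

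Near-silent components occurred on both sides. Of the 74 higher components, 17 (23.0%) were below 1 RPKM in the library where they were lower, and 5 were listed at 0 there. Of the 98 components lower in heat by the same size, 15 (15.3%) were below 1 RPKM in heat, and 2 were listed at 0. A component with a mean of at least 10 RPKM and 1 value below 1 RPKM passes the fold limit in any case. The 17 and 15 are therefore also the counts among all 3486 components of this mean range. The shares of 23.0% and 15.3% depend on the unlike totals of 74 and 98, and their difference was not tested. The lower components summed to 9995 RPKM in control against 1372 RPKM in heat.

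The number of assembled transcripts grouped in a component was not used in the choice. In the group, 53 of 74 components (71.6%) held a single transcript, 12 held 2 to 4 and 9 held 5 or more. Over all 3486 components of the same mean range, 57.2% held a single transcript, 24.9% held 2 to 4 and 17.9% held 5 or more. Among the 98 lower components, 58.2% held a single transcript. The share was 76.5% in the near-silent components and 70.2% in the expressed ones. None of these differences was tested, and pieces of one gene can be listed as separate components.

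A few members were large assemblies. The component with the most transcripts grouped 65 and stood at 31.46 RPKM in heat against 5.89 RPKM in control. The others with more than 10 grouped 25, 13 and 12 transcripts. They stood at 1108.20, 63.31 and 136.88 RPKM in heat, and at 253.97, 13.18 and 22.41 RPKM in control. All 4 were expressed components with ratios of 4.36 to 6.11, so none of them was near silent in the control library.

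The identifiers also show which components came from one assembly cluster, meaning that they share a cluster number. The 74 components came from 71 clusters, and 58 of them (78.4%) were alone in theirs, against 81.4% of the 3486 components. Of the 71 clusters, 3 held a pair of members each. In one pair the members stood at 40 and 42.22 RPKM in heat and at 7.40 and 8.27 RPKM in control, so that they were 5.41 and 5.11 times as high in heat. In the next they stood at 43.53 and 136.11 RPKM in heat and at 8.63 and 30.32 RPKM in control, ratios of 5.04 and 4.49. The second pair differed in level between its members.

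The last pair lay on both sides of the 1 RPKM boundary. One member stood at 19.95 RPKM in heat against 0.45 RPKM in control and counts as near silent, and the other stood at 22.08 RPKM in heat against 1.25 RPKM in control and counts as expressed. Their ratios were 44.3 and 17.7, further apart than in the other pairs. All of these ratios are high by the choice, and members of a pair share their cluster and are not independent of each other.

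A further 10 members, from 10 clusters, had 12 cluster partners outside the choice, all of them with means of 1 RPKM or more. Of these 12, 8 were at least 2-fold higher in heat (log2 fold of at least 1), 4 were less than 2-fold apart and 0 were at least 2-fold lower. Over all 29462 components whose mean reached 1 RPKM, 6.64% were at least 2-fold higher. The median log2 fold of the 12 was 1.75, against 0.05 over all of these components. The 12 include 2 listed at 0 in control, whose place in the median rests on the pseudocount. Being from the same clusters and libraries, these values describe the clusters and are not independent support.

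Of the 12 partners, 2 met the fold limit and missed only the level limit. One stood at 10.04 RPKM in heat and was listed at 0 in control, and its cluster partner inside the group was near silent, at 31.63 RPKM in heat against 0.31 RPKM in control. The other stood at 13.30 RPKM in heat against 0.96 RPKM in control, beside a near-silent partner at 23.75 RPKM in heat that was listed at 0 in control. Near silence in control was thus found in both components of these clusters. Another near-silent member, at 24.89 RPKM in heat against 0.03 RPKM in control, had a partner at 2.38 RPKM in heat listed at 0 in control. Elsewhere the components of a cluster differed. A partner at 2.65 RPKM in heat against 0.05 RPKM in control lay beside an expressed member, at 21.76 RPKM against 2.75 RPKM.

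The most abundant of the 12 stood at 772.63 RPKM in heat against 201.72 RPKM in control, with a log2 fold of 1.93, short of the limit. Its partner in the group was far less abundant, at 53.37 RPKM in heat against 4.49 RPKM in control, with a log2 fold of 3.31. In the cluster of the member at 1108.20 RPKM in heat, the other 3 components were low and differed in direction. One stood at 9.08 RPKM in heat against 1.71 RPKM in control, one at 7.20 RPKM and 4.85 RPKM, and one at 2.55 RPKM and 4.18 RPKM.

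**Figure D4:**
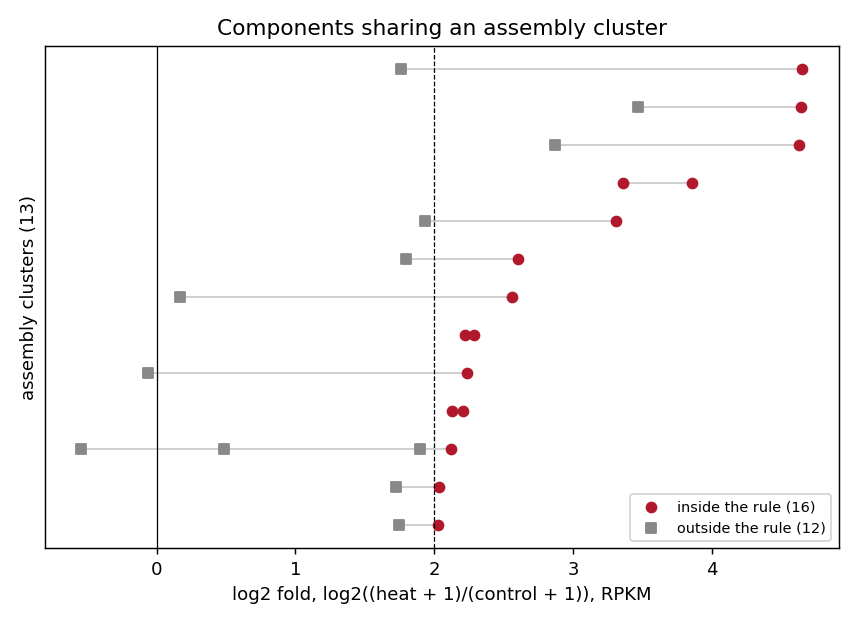
Log2 fold, log2((heat + 1)/(control + 1)), of the 16 members (red circles) that share an assembly cluster with another component, and of the 12 components outside the choice (grey squares), 1 row per cluster. The dashed line marks the limit of 2, and 8 of the 12 squares lie at a log2 fold of at least 1, with components listed at 0 in control placed by the pseudocount.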

How the data were processed

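The authors deposited 1 table for the series, with an RPKM value per library for each assembled component, and the unit is per the file headers. The submitters' processing notes name Bowtie, RSEM and edgeR and give neither their roles nor their versions. Which assembler, annotation and filters were used is not given in the sources used here. Per the labels' protocols, polyadenylated RNA was sequenced as paired ends, with no strand marking described. Both value columns were assigned by the sample titles.

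From these values the mean, the log2 fold with a pseudocount of 1 RPKM, ratios without a pseudocount and ranks were computed with Python 3.11.15, numpy 2.4.6 and pandas 2.3.3, and figures with matplotlib 3.10.9. The calculation was run on simulated data whose changes were all well past the fold limit. This checked that large changes are found in the right direction. It could not check components near the limit, near-silent components or variation between fish. No test across samples was possible with 1 library per temperature. The members, classes and limits were chosen with earlier results of these data known. Because the table holds no gene names, the gene and marker lists drawn up were not applied. By rule, 2 identifiers are printed: the near-silent component with the largest log2 fold and the expressed component with the highest heat value. Other components were picked by their place in the order of level or fold, by transcript number or by cluster, some after their values were seen.

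Relative depth was read from 13543 components with a mean of 0.5 to 1.5 RPKM. Of their log2 ratios, 404 lay within 0.01 of -0.059, the most frequent value, which was assumed to mark equal read numbers. Alternatives were other pseudocounts, limits and rescalings, and summed clusters.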

Additional observations from a re-analysis of the deposited data

How the results depend on the processing

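The number of components in the group was 74 as reported and depended most on its limits. It was 270 with a log2 fold of at least 1, 33 with at least 3, 134 with a mean of at least 5 RPKM and 46 with at least 20 RPKM. It stayed within 1.5 times of 74 with pseudocounts of 0.1 RPKM (83) and 5 RPKM (51), with no upper limit on the mean (79), with the heat library rescaled by the median ratio (67), a trimmed mean of log ratios (67) or the upper quartile (72), and with clusters summed (72). Removing components listed at 0, an alternative chosen after seeing the data, gave 69. The near-silent number was 12 to 23 under all alternatives run for it. The expressed number was 57 as reported and 34 with a pseudocount of 5 RPKM, and 51 to 66 otherwise. The median log2 fold of the 74 components ranged from 2.28 to 2.88. Without components of mean 1000 RPKM or more, the group made up 4.37% of the remaining summed RPKM in heat and 0.526% in control. Of the summed RPKM of all components it made up 1.67% and 0.207%. The rescalings of the level classes were also chosen after seeing the data. No paired analysis was possible because each temperature has 1 library, and for the same reason no replicate could be left out. How precise control values below 1 RPKM are is unknown, since no read numbers were given.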
